A study of Mus musculus with 16 samples.

Results

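The kallikrein and plasminogen activator system was examined in mouse spinal cord through 8 genes: the kallikreins *Klk6* and *Klk8*, the plasminogen activators *Plat* and *Plau*, the activator receptor *Plaur*, the inhibitors *Serpine2* and *Serpini1*, and the thrombin receptor *F2r*. They were chosen by gene symbol, with measured values in view, since *Klk6* and *Plat* moved in opposite directions with age and with disease, lower in old than in young wild-type mice (WO against WY) and higher in old mutant than in old wild-type mice (MO against WO). All 8 were among the 18167 genes of the table. The libraries came from 16 mice labelled male, 1 library per mouse, that carried a human profilin1 transgene under the prion promoter. Mutant mice, on a C57BL/6N background with the transgene Tg(Prnp-PFN1*G118V)838Kiaei, expressed the G118V protein and develop a motor neuron disease. Control mice, on the same background with Tg(Prnp-PFN1)850Kiaei, expressed the unchanged human protein. Each genotype was thus 1 transgenic line, so the mutation and the line cannot be told apart. The mutant young (MY, n = 3) and wild-type young (WY, n = 3) mice were 50 days old. The mutant old mice at end stage (MO, n = 5) were 175 to 245 days old and the wild-type old mice (WO, n = 5) 190 to 294 days old. The young mice were all in library batch 1, and MO and WO each had 3 mice in batch 1 and 2 in batch 2. In batch 2 the MO mice were 224 and 175 days old and both WO mice 294. A difference within batch 2 thus sets 2 mice against 2 of another age.

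Kallikreins and plasminogen activators are secreted serine proteases. Tissue-type plasminogen activator (*Plat*) and urokinase (*Plau*) cut plasminogen to plasmin, which degrades fibrin and matrix proteins, and urokinase acts at the cell surface on its receptor (*Plaur*). The serpins block such proteases by binding them irreversibly. In the central nervous system *Klk6* is made largely by oligodendrocytes, tissue-type activator by neurons and glia, and urokinase by reactive microglia among other cells.

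Values are log2(1 + FPKM) after the authors' batch correction, where FPKM counts fragments relative to transcript length and sequencing depth. A log2 fold change was the second group minus the first, and understates the change of genes near or under an FPKM of 1. A gene was called when its false discovery rate in limma (FDR, Benjamini-Hochberg over the whole table) was 0.05 or less and the groups differed by 1.5-fold or more. The fragments behind each gene are unknown, so the error given is the spread between mice. The library MO5 went against its label, with *Xist* at 3.21, against at most 0.37 in the other 15 libraries, and the Y-linked *Ddx3y* at 1.95, against at least 4.06. Results are therefore also given without MO5. In bulk tissue, a change in the number of cells of a type and a change of RNA per cell cannot be told apart.

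On GRCm38 the 8 genes lie on 6 chromosomes, with *Klk6*, *Klk8* and *Plaur* on chromosome 7. Outside the kallikrein cluster, *Plaur* lies at chr7:24462484-24475968 (plus strand), *Plat* at chr8:22757727-22782844 (plus), *Plau* at chr14:20836660-20843385 (plus), *Serpine2* at chr1:79794197-79861180 (minus), *Serpini1* at chr3:75557547-75643495 (plus) and *F2r* at chr13:95601803-95618487 (minus). Back on the FPKM scale, the most abundant of the 8 genes in WY were *Klk6* (187.5 ± 17.0, SD, n = 3) and *Serpine2* (156.5 ± 6.34). *Serpini1* (43.3 ± 4.16) and *Plat* (33.9 ± 1.04) followed, and *F2r* was at 6.80 ± 0.21. *Klk8* (1.48 ± 0.30), *Plau* (1.37 ± 0.21) and *Plaur* (0.58 ± 0.10) were low. In MO, *Plau* stood at 7.82 ± 3.65 (n = 5), *Plaur* at 3.07 ± 0.76 and *Klk8* at 3.57 ± 1.59.

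Of the 8 genes, 3 were called in MY vs. MO (*Klk8*, *Plau* and *Plaur*, all higher in MO), against 4.9% of all genes. In WY vs. MY none was called in the limma fit, against 0.0055% of all genes, which is 1 gene, *Prnp*, whose promoter drives the transgene. At an unadjusted p under 0.05 there were 2 of the 8 in WY vs. MY (*Klk8* and *Plat*), beside 7.16% of all genes. Between WY and MY, 4 of the 8 (*Plat*, *Serpine2*, *Serpini1* and *F2r*) did not overlap, as was the case for 13.7% of all genes. The other 2 comparisons were in view when the genes were chosen, and are given as a description without a test. In WO vs. MO, 5 of the 8 met the thresholds (*Klk6*, *Klk8*, *Plat*, *Plau* and *Plaur*, all higher in MO), where 4.6% of all genes did. In WY vs. WO, *Klk6* and *Plat* met them, both lower in WO, where 0.253% of all genes did. MY vs. MO shares the MO mice with WO vs. MO, and WY vs. MY shares the WY mice with WY vs. WO, so the comparisons are not independent of the choice of genes. Without MO5 the count was 3 in MY vs. MO, beside 914 of all genes, and 4 in WO vs. MO, beside 855, where *Klk6* dropped out.

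**Figure D1:**
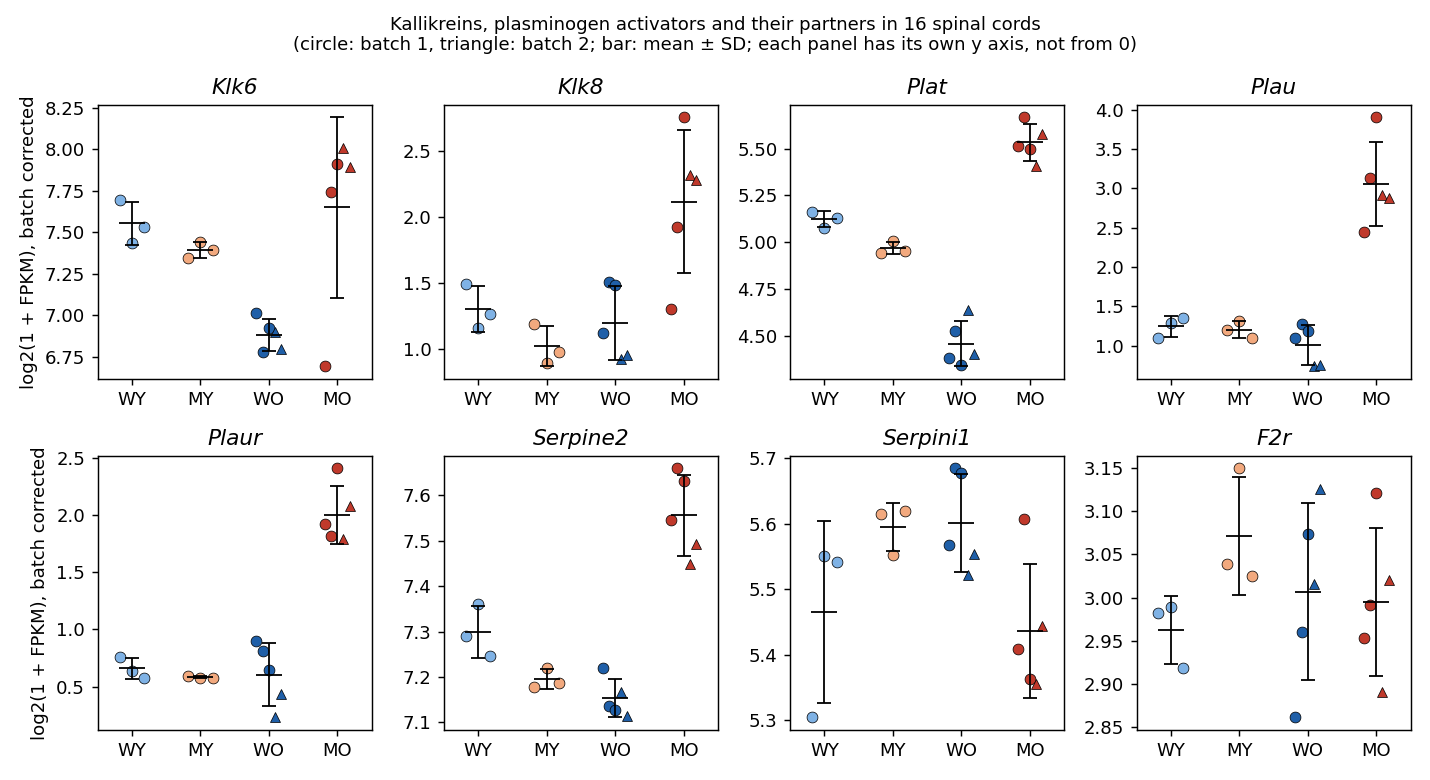
Batch-corrected log2(1 + FPKM) of each of the 8 genes (y axis, a scale per panel that does not start at 0) in each mouse by group (x axis); circles are batch 1, triangles batch 2, and bars the mean and SD. *Plat*, *Plau*, *Plaur* and *Serpine2* were higher in each MO mouse than in any other mouse, and *Klk6* in MO1 (6.69) lay below every WO mouse.

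*Klk6* encodes a trypsin-like kallikrein that can cut myelin basic protein. It was at 7.69, 7.44 and 7.53 in the WY mice, 7.35, 7.44 and 7.39 in the MY mice, and 7.01, 6.78, 6.92, 6.90 and 6.80 in the WO mice. The 5 MO mice were at 6.69, 7.74, 7.91, 8.01 and 7.89. Every WO mouse lay below every young mouse, and 4 of the 5 MO mice lay above every other mouse, whereas MO1 was the lowest of all 16. The group means ran from MO (7.65 ± 0.54, SD, n = 5) through WY (7.55 ± 0.13, n = 3) and MY (7.39 ± 0.05, n = 3) to WO (6.88 ± 0.10, n = 5). Because of MO1 the range of MO took in those of all other groups, and WY and MY overlapped.

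The selected differences of *Klk6* were -0.67 from WY to WO (SE 0.07) and 0.77 from WO to MO (SE 0.22), the latter 0.54 within batch 1 and 1.10 within batch 2. Between MY and MO the difference was 0.26 (SE 0.28, limma FDR 0.560), with 12 of 15 pairs of an MY and an MO mouse higher in MO, and its 95% interval ran from -0.37 to 0.88. It was 0.06 among the mice of batch 1. Leaving out MO1 made it 0.50 (SE 0.06, limma FDR 0.00174), still under the fold threshold, and WO vs. MO 1.01, and over all alternatives the FDR ranged from 0.00174 to 1. The result without MO5 was 0.19 (limma FDR 0.699). From WY to MY the difference was -0.16 (SE 0.07, limma FDR 0.701). *Klk6* no longer met the thresholds in WO vs. MO within batch 1, in the test against a fold change of 1.2 or without any one of MO2, MO3, MO4, MO5, WO2 and WO5.

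*Klk8*, the kallikrein also called neuropsin, is known from the hippocampus, where it acts in synaptic plasticity. Its values were 1.49, 1.15 and 1.26 in WY, 1.19, 0.89 and 0.98 in MY, and 1.12, 1.503, 1.48, 0.92 and 0.95 in WO. In MO they were 1.30, 1.92, 2.76, 2.32 and 2.28, so that each MO mouse exceeded every MY mouse and MO1 fell within the WO range. From MY to MO *Klk8* rose by 1.10 (SE 0.28, limma FDR 0.0221, 15 of 15 pairs), and by 0.97 among the mice of batch 1, where the limma FDR was 0.0863. The call was also lost with batch as a term (FDR 0.0613) and without MY1 (FDR 0.0578), MY2 (FDR 0.0806) or MY3 (FDR 0.0775), and kept without MO5 (1.06, FDR 0.0457). It was lost as well with the replicate number as a block and in the test against a fold change of 1.2. Over all alternatives the FDR of this difference ranged from 0.00213 to 0.153. Described without a test, WO vs. MO differed by 0.92 (0.62 in batch 1 and 1.36 in batch 2), and did not meet the thresholds within batch 1 or against a fold change of 1.2. WY vs. WO differed by -0.11, and by 0.07 with the opposite sign within batch 1. WY and MY differed by -0.28 (SE 0.11, limma FDR 0.689). The 5′ end of *Klk8* (chr7:43797577-43803826, plus strand, GRCm38) overlaps *2310002F09Rik* on the opposite strand, whose FPKM was at most 0.43 in any mouse. The libraries were stranded, but strand use in the counting is not given in the sources used here, so reads of the pair cannot be told apart where they overlap. *Klk6* lies in the same kallikrein cluster (chr7:43824499-43832030, plus strand).

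*Plat* encodes tissue-type plasminogen activator. It stood at 5.16, 5.08 and 5.13 in WY and at 4.94, 5.01 and 4.95 in MY. The WO mice were at 4.38, 4.53, 4.34, 4.64 and 4.40, and the MO mice at 5.52, 5.67, 5.50, 5.41 and 5.58. No 2 groups overlapped, and the order from high to low was MO (5.53 ± 0.10), WY (5.12 ± 0.04), MY (4.97 ± 0.03) and WO (4.46 ± 0.12). On the FPKM scale these means were 45.4, 33.9, 30.3 and 21.0.

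The selected differences of *Plat* were -0.67 from WY to WO (SE 0.07) and 1.08 from WO to MO (SE 0.07), with 1.14 within batch 1 and 0.97 within batch 2. In MY vs. MO, *Plat* was higher by 0.57 (SE 0.06, limma FDR 0.000513, 15 of 15 pairs), a fold change of 1.48 on the scale of 1 + FPKM, just under the threshold of 1.5. It passed that threshold within batch 1 (0.59, FDR 0.00115), with batch as a term (0.59), without MO4 (0.60, FDR 0.000295) and without MY2 (0.59, FDR 0.00353). Without MO5 the difference was 0.56 (FDR 0.00164), and over all alternatives the FDR ranged from 2.56e-05 to 0.0140. WY and MY did not overlap, with a difference of -0.16 (SE 0.04, limma FDR 0.591). In WY vs. WO neither *Plat* nor *Klk6* met the thresholds without WY3, where the count over all genes was 7 in place of 46.

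*Plau* encodes urokinase. Its values lay between 0.74 and 1.35 in the 11 mice of the other groups, with WY at 1.09, 1.29 and 1.35, MY at 1.199, 1.311 and 1.099, and WO at 1.09, 1.28, 1.18, 0.74 and 0.75. In MO they were 2.45, 3.14, 3.91, 2.91 and 2.88. Each MO mouse was above every other mouse, and the highest was MO3. From MY to MO *Plau* rose by 1.85 (SE 0.27, limma FDR 0.00205, 15 of 15 pairs), by 1.96 in batch 1 and by 1.90 without MO5 (FDR 0.00481), with an FDR of at most 0.0157 over all alternatives. The selected difference from WO to MO was 2.05 (SE 0.23; 1.98 in batch 1 and 2.15 in batch 2). As a ratio of mean FPKM, MO was 5.99 times MY and 7.57 times WO. WY and MY differed by -0.04 (limma FDR 0.917), and WY and WO by -0.24.

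*Plaur* encodes the urokinase receptor, which a lipid anchor holds on the membrane. It was at 0.76, 0.63 and 0.58 in WY, 0.59, 0.58 and 0.57 in MY, 0.90, 0.81, 0.64, 0.23 and 0.44 in WO, and 1.93, 1.82, 2.41, 1.79 and 2.08 in MO. Each MO mouse was again above all others, and MO3 was again the highest. The rise from MY to MO was 1.43 (SE 0.13, limma FDR 0.000317), with 1.47 in batch 1 and 1.41 without MO5 (FDR 0.00114). The FDR was at most 0.00439 over all alternatives, and the mean FPKM of MO was 6.20 times that of MY. From WO to MO the selected difference was 1.40 (SE 0.15; 1.27 in batch 1 and 1.60 in batch 2). The 2 lowest WO values of *Plau* and of *Plaur* were those of WO4 and WO5, the mice of batch 2 aged 294 days. WY and MY differed by -0.08 (limma FDR 0.743), and WY and WO by -0.05, or 0.13 within batch 1.

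*Serpine2* encodes protease nexin-1, an inhibitor of thrombin and of both plasminogen activators. It was at 7.29, 7.36 and 7.25 in WY, 7.18, 7.22 and 7.19 in MY, 7.22, 7.14, 7.13, 7.17 and 7.11 in WO, and 7.55, 7.66, 7.63, 7.45 and 7.49 in MO. Each MO mouse exceeded every other mouse, although the shift was small. Between MY and MO it was 0.36 (SE 0.06, limma FDR 0.00237, 15 of 15 pairs), which passed the FDR and not the fold threshold. An FDR at or below 0.05 without regard to fold was found for 25.6% of all genes in that comparison and for 5 of the 8. Without MO5 it was 0.38 (FDR 0.00423), and over all alternatives the FDR ranged from 8.39e-05 to 0.602, the last in a test against a fold change of 1.2. The difference from WO to MO was 0.40 (0.45 in batch 1 and 0.33 in batch 2) and that from WY to WO -0.15. WY and MY differed by -0.10 (limma FDR 0.698).

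*Serpini1* encodes neuroserpin, an inhibitor of tissue-type activator made mainly by neurons. It ranged from 5.30 to 5.55 in WY, 5.55 to 5.62 in MY, 5.52 to 5.68 in WO and 5.36 to 5.61 in MO. MO overlapped all other groups. Between MY and MO the difference was -0.16 (SE 0.06, limma FDR 0.0949, 14 of 15 pairs lower in MO), and from WO to MO -0.17 (-0.18 in batch 1 and -0.14 in batch 2). The difference from WY to MY was 0.13 (limma FDR 0.723), and that from WY to WO 0.14. The activators and their receptor were at least 1.48-fold higher in MO than in MY on the scale of 1 + FPKM, while *Serpini1* in MO was 0.90 of MY on that scale and did not pass the test.

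*F2r* encodes protease-activated receptor 1, which thrombin and other serine proteases switch on by cutting its outer end. It lay between 2.86 and 3.15 in all 16 mice, and the 4 group means between 2.96 (WY) and 3.07 (MY). The MY and MO means differed by -0.08 (SE 0.06, limma FDR 0.398), with a 95% interval from -0.21 to 0.06. WO vs. MO gave -0.01, with 0.06 in batch 1 and -0.11 in batch 2. WY vs. MY gave 0.11 (limma FDR 0.708) and WY vs. WO 0.04. Of the 4 comparisons, only WY vs. MY had no overlap.

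**Figure D2:**
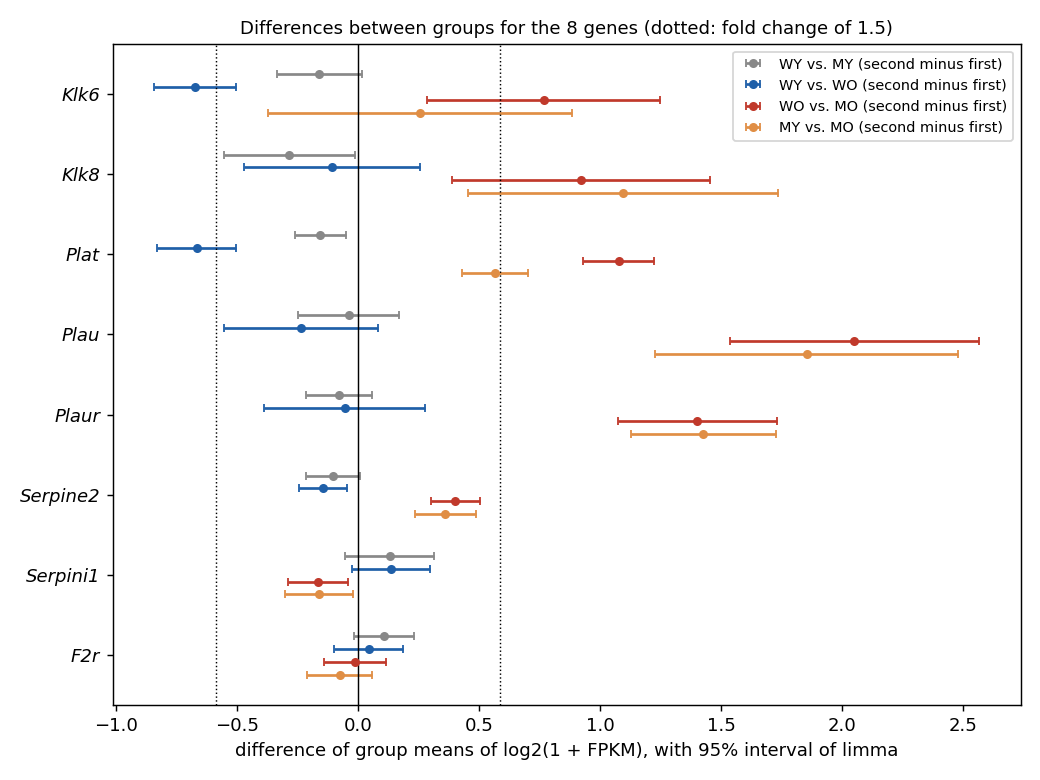
Differences of group means of log2(1 + FPKM) with the 95% interval of the limma fit (x axis) for the 8 genes (y axis) in 4 comparisons, second group minus first; dotted lines mark a fold change of 1.5. WO vs. MO and WY vs. WO were in view when the genes were chosen, and *Klk6* and *Plat* lie left of 0 in WY vs. WO (-0.67 for each) and right of it in WO vs. MO (0.77 and 1.08).

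The difference between the age effect in mutant mice (MO minus MY) and that in wild-type mice (WO minus WY) was fitted on all 16 mice. It is built from contrasts that were in view when the genes were chosen, so it is given for all 8 genes as a description without a test. It was 0.93 (SE 0.31) for *Klk6*, 1.23 (SE 0.09) for *Plat*, 2.09 (SE 0.33) for *Plau*, 1.48 (SE 0.21) for *Plaur* and 1.203 (SE 0.35) for *Klk8*, and these 5 met the thresholds, as did 5.61% of all genes. *Plat* was lower in each WO mouse than in any WY mouse, and higher in each MO mouse than in any MY mouse. *Klk6* met the thresholds with all mice and without MO1 (1.17), and not without any other single mouse (0.84 to 0.99), in batch 1 (0.71) or with a pseudocount of 0.1 (0.93). *Klk8* did not meet them in batch 1 (0.91) or without MY2, MY3 or WY1. The values of *Serpine2* (0.51) and *Serpini1* (-0.30) were under the fold threshold, as was that of *F2r* (-0.12). Without MO5 the values were 2.13 for *Plau*, 1.46 for *Plaur*, 1.16 for *Klk8* and -0.30 for *Serpini1*.

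Around these genes, 6 lists of other members of the system held 72 genes, of which 61 were in the table. In all, 20 were called in at least 1 comparison, and none of these calls was in WY vs. WO or WY vs. MY. By single comparison, the share of all genes called was 4.9% in MY vs. MO and 4.6% in WO vs. MO. It was 0.253% in WY vs. WO and 0.0055% in WY vs. MY. Plasminogen itself (*Plg*) was near the floor of the table, at 0.15 in MO and 0.13 in WO. Of 7 genes for plasminogen, its receptors and cofactors, 2 rose in MY vs. MO, namely *S100a10* (0.92, SE 0.11, limma FDR 0.000940) and *Anxa2* (0.76, SE 0.07, limma FDR 0.000292), whose products together bind plasminogen and its tissue-type activator at the cell surface. Both were also called in WO vs. MO (0.92 and 0.80). The median of the list was 0.26 in MY vs. MO, beside 0.00 for all genes.

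Among 14 measured serpins and other inhibitors, none fell from MY to MO or from WO to MO. *Serpina3n*, a serpin of reactive glia, rose most (3.09, SE 0.23, limma FDR 0.000212, from 5.51 ± 0.03 in MY to 8.60 ± 0.45 in MO). *A2m*, which traps proteases of every class, rose by 1.47 (limma FDR 0.000432) and *Spint1*, an inhibitor of matriptase, by 1.16 (limma FDR 0.000538). *Serpinf2*, the plasmin inhibitor, rose by 0.89 (SE 0.22, limma FDR 0.0202). The call of *Serpinf2* in MY vs. MO was lost in batch 1 (FDR 0.0511), without MY1 (FDR 0.0716), without MY2 (FDR 0.0555) and without MY3 (FDR 0.0768). *Tfpi*, the tissue factor pathway inhibitor, rose by 0.59 (limma FDR 0.00232) in MY vs. MO, just past the fold threshold, which the difference missed without MO2, MO3 or MY1 (0.54, 0.57 and 0.52). The call of *Tfpi* was also lost with quantile normalization (0.47) and in the test against a fold change of 1.2 (FDR 0.0645). In WO vs. MO *Tfpi* was at 0.42 and was not called, except with a pseudocount of 0.1 (0.61, FDR 0.0129). The median of the list was 0.27 in MY vs. MO and 0.26 in WO vs. MO.

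Of 8 measured genes for thrombin, tissue factor and the other protease-activated receptors, 2 rose from MY to MO. Tissue factor (*F3*) rose by 0.82 (SE 0.09, limma FDR 0.000624) and the endothelial protein C receptor (*Procr*) by 0.87 (SE 0.15, limma FDR 0.00388). In WO vs. MO *Procr* was called (0.90), and *F3* lay at 0.58, just under the threshold, which it passed without any one of MO2, MO4, WO1, WO2 and WO3 (0.59 to 0.63). The prothrombin gene (*F2*) was near 0 in the cord (0.03 in MO). Of 8 other kallikreins and related proteases in the table, *St14*, which encodes matriptase, was called in both comparisons (1.2 in MY vs. MO, limma FDR 0.000654, and 1.26 in WO vs. MO, limma FDR 3.97e-05). The other measured kallikreins *Klk7*, *Klk9*, *Klk10* and *Klk11* had means of at most 0.41 in MO, far under *Klk6*.

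Of 12 clearance and signalling receptors, 2 rose from MY to MO. The integrin chains *Itgb2* (2.16, SE 0.19, limma FDR 0.000297) and *Itgam* (0.89, SE 0.16, limma FDR 0.00535), which form the Mac-1 receptor of microglia and myeloid cells, rose. *Sdc1* was called in WO vs. MO (0.61), though not without MO5 (0.58) or with quantile normalization (0.52). It was not called in MY vs. MO (0.42), where it passed with a pseudocount of 0.1 (0.77, limma FDR 0.0023). Of 12 known substrates, 3 rose from MY to MO, namely *Fn1* (1.15, limma FDR 0.000744), *Tgfb1* (1.07, limma FDR 0.00166) and *Hgf* (0.69, limma FDR 0.00517). The call of *Hgf* was lost with quantile normalization (0.579) and in the test against a fold change of 1.2 (FDR 0.0863). *Mmp9* fell by 0.71 (limma FDR 0.000566). In WO vs. MO *Nrg1* fell as well, by 0.69 (limma FDR 7.53e-05), while in MY vs. MO it lay at -0.56, under the fold threshold. It passed that threshold without MO5 (-0.59), with quantile normalization (-0.586) and with a pseudocount of 0.1 (-0.62). The same held within batch 1, with batch as a term and with the replicate block (-0.60 in each). The *Fn1* call in WO vs. MO (0.76, limma FDR 0.0278) was lost within batch 1, where the difference was 0.39, and without MO2, MO3, MO5, WO4 or WO5 (FDR 0.0572 to 0.0661). Among the genes of the 6 lists named here, leaving out MO5 changed the calls of *Fn1*, *Sdc1* and *Nrg1* just given. The medians of these 2 lists in MY vs. MO were 0.05 and -0.03.

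Several markers of glial cell types were called between groups, and few or none of other cell types. Of 8 myelin genes, 4 fell from WY to WO (*Mog*, *Cldn11*, *Opalin* and *Ugt8a*). Of the 8, 3 fell from MY to MO, among them *Mog* and *Ugt8a*, and *Ugt8a* fell from WO to MO as well. The summed FPKM of the list was set by *Mbp*, its most abundant gene, which behaved unlike the rest in batch 2: it was at 17720 in MO4, 18060 in MO5, 19070 in WO5 and 39.9 in WO4, and between 4571 and 9632 in the mice of batch 1. The 4 genes that fell from WY to WO, put together after their values were seen, came to 1057, 998.7 and 1055 FPKM in WY, 943.7, 936.3 and 957.3 in MY, 520.6, 515.4, 567.3, 637.5 and 606.8 in WO, and 451.7, 528.6, 510.4, 777.5 and 734.8 in MO, so that MO1 was the lowest of all 16 mice, as it was for *Klk6*. From WO to MO the mean of these 4 genes was slightly higher, while the wider sums without *Mbp* were lower. For the 4 genes the direction also depended on the batch. The mean of these 4 was 600.6 FPKM in MO and 569.5 in WO. That of a wider sum of 6 genes of the list, also set after the values were seen, was 1231 in MO and 1345 in WO, with MO1 again lowest (1012). The whole list without *Mbp* had a mean of 3068 in MO and 4071 in WO, with MO1 lowest (2352). Of the 8 myelin genes, 2 were called lower in MO than in WO and 0 higher (median -0.30). Of the authors' 35 oligodendrocyte markers, 3 were called lower in MO than in WO and 0 higher (median -0.27). In batch 1 the sum of the 4 genes was 451.7 to 528.6 in MO and 515.4 to 567.3 in WO. In batch 2 it was 777.5 and 734.8 in MO, and 637.5 and 606.8 in WO. *Klk6* and these 4 genes were all picked with their fall from WY to WO in view, so that likeness was fixed by the choice. Between WO and MO, also in view for *Klk6*, it was higher in 4 of 5 MO mice. None of the 4 myelin genes was called higher there. A second oligodendrocyte list, of genes reported in mature cord or reactive cells, had 4 of 8 higher in MO in both MY vs. MO and WO vs. MO (*Ptgds*, its most abundant gene, *Apod*, *Serpina3n* and *C4b*). Its summed FPKM was 1790 to 2093 in WY, 1763 to 1890 in MY, 1566 to 1764 in WO, and 5139, 4207, 3275, 2660 and 3479 in MO, so it was highest in MO1. Of 6 precursor markers, *Gpr17* and *Enpp6* fell from MY to MO and *Gpr17* from WY to WO. The summed FPKM of these markers, of which *Bcas1* was the most abundant, was 278.2 to 333.0 in WY, 276.2 to 293.8 in MY, 235.0 to 258.7 in WO, and 166.2, 188.6, 208.9, 251.8 and 207.9 in MO, again lowest in MO1. *Sox10*, which is in the Schwann cell list and is made by oligodendrocytes too, was at 32.46 FPKM in MO1 and at 42.23 or more in every other mouse.

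Of 7 microglia markers, 6 rose from MY to MO and 5 from WO to MO, and the summed FPKM was 78.0 to 82.7 in MY, 64.9 to 82.9 in WO, 73.0 to 79.6 in WY, and 186, 221, 265, 163 and 185 in MO. The sum was highest in MO3, as were *Plau* and *Plaur*, and its most abundant gene was *Csf1r* (1.17 from MY to MO, limma FDR 0.000203). Of 7 astrocyte markers, 2 rose from MY to MO (*Gfap*, the most abundant, by 1.26 and *Aldh1l1* by 0.62) and 3 from WO to MO, and *Aqp4* fell by 0.65 from WY to WO. Summed FPKM was 2280 to 2456 in WY, 2197 to 2252 in MY, 1857 to 2070 in WO, and 3599, 4405, 3943, 3396 and 3565 in MO. Of 7 neuron markers only *Slc6a5* was called, lower in MO in both comparisons, and of 7 motor neuron markers only *Chat* was, lower in MO (3.28) than in WO (3.95), so motor neuron RNA was present in this tissue. *Tagln*, 1 of 5 pericyte and smooth muscle markers, rose in both comparisons, and *Rarres2*, 1 of 4 ependymal markers, in WO vs. MO. None of 7 endothelial, 6 meningeal fibroblast, 5 Schwann cell, 6 monocyte, neutrophil and T cell, 4 blood or 4 skeletal muscle markers was called in any of the 4 comparisons. MO1 also stood apart in the blood markers, with a summed FPKM of 11.73 against 43.33 to 96.77 in the other mice. The part of cell number in the values of the 8 genes was not tested.

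The genes most like each of the 8 were found by Pearson correlation over the 16 mice among 13529 genes with a mean of at least 1, as a measure of likeness that mostly follows the groups. Nearest to *Klk6* were *Fgfrl1* (0.95), *S100a16* (0.94), *Aldh1l2* (0.94), *Nipsnap3b* (0.93) and *Cadm4* (0.93). For these the likeness of deviations from the group means was also 0.89 or more, and each had its largest spread in MO, where the SD of *S100a16* was 0.36 against at most 0.14 elsewhere. The SD of *Klk6* was likewise largest in MO (0.54), where MO1 was at 6.69 and the other MO mice at 7.74 to 8.01. The likeness of deviations may thus rest largely on MO1, and it was not computed without that mouse. Nearest to *Plat* were *Fkbp9* (0.96), *Col12a1* (0.95), *Npc2* (0.95), *Kctd5* (0.95) and *Cd44* (0.95), with deviations that were less alike (0.14 to 0.61). *Cd44*, a hyaluronan receptor, was at 2.87 in WY, 2.66 in MY, 2.20 in WO and 3.84 in MO, in the order of *Plat* in all but its distances.

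*Plau* was most like *Itgax* (0.99), a gene of disease-associated microglia, then *Emp1* (0.99) and *Cx3cr1* (0.99), a microglial chemokine receptor. Deviations from group means were alike as well, at 0.96, 0.93 and 0.89. The mean of at least 1 was taken over all 16 mice, so *Itgax* (a mean of 3.16 in MO and at most 0.45 in another group), *Mmp19* (1.86 and at most 0.92) and *Slc16a3* (1.71 and at most 0.99), the latter 2 named below, were let in by their level in MO. *Plaur* was most like *Fmod* (0.99), *Capn3* (0.99) and *Cd68* (0.99), a lysosomal protein of phagocytes. *Serpine2* was nearest to *Mapkapk2* (0.98), *Gfap* (0.97), the intermediate filament of astrocytes, and *Mmp19* (0.97). *Klk8* was nearest to *Slc16a3* (0.94), *S1pr3* (0.94) and *Lat2* (0.93), *Serpini1* to *Wasl*, *Pptc7* and *Pdp1* (each 0.90), and *F2r* to *Notch1* (0.79), *Sertad2* (0.76) and *Aste1* (0.70).

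Promoter sequences of RefSeq (GRCm38.p6) were at hand for 6 of the 8 genes in 7 windows, with none for *Plat* and *Plau*. The 250 bases before each gene start were searched for TGANTCA, which reads alike on both strands, the motif of the AP-1 factors, which are known to act on the urokinase receptor gene. It occurred in 6.75% of all 32851 windows and in those of *Plaur*, which rose in MO, and *F2r*, which did not pass the test. The sites are shown for these contrasting genes, 5′ to 3′ on the strand of the gene, with the motif in capitals. Distances are counted from the RefSeq start, chr7:24462483 for *Plaur* and chr13:95618466 for *F2r*, which differs from the GENCODE start given above.
*Plaur*, chr7:24462403-24462431, plus strand, motif starting 69 bases before that start: acccctggagcTGACTCActctttagcaa
*F2r*, chr13:95618653-95618681, minus strand, motif starting 204 bases before that start: ccccgaggggcTGAGTCActcccaggctt
A match is a description of the letters in the window.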

How the data were processed

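Spinal cord RNA of 16 mice was sequenced by the authors, 1 library per mouse, and group, age and batch were taken from the labels. The deposited values are log2(1 + FPKM), which the authors corrected for batch with ComBat. Before that, reads were trimmed (Trimmomatic), mapped (TopHat, genome mm10) and turned into FPKM per gene (Cufflinks). Versions and the strand setting are not given in the sources used here. Of the values, 915 were below 0. Depth per gene is unknown.

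Each comparison was fitted on its own 2 groups with limma 3.58.1 in R 4.3.3 (lmFit, eBayes, two-sided), and the genotype by age contrast on all 16 mice. The procedure was tested on simulated data. Tables were made with Python 3.11.15, pandas 2.3.3 and NumPy 2.4.6, and plots with matplotlib 3.10.9. Positions came from GENCODE on GRCm38. FPKM was computed back as 2 to the power of the value minus 1.

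The genes named were the 8 members, each gene of the 6 pathway lists called in any comparison, the 5 genes most like *Klk6* and *Plat*, the 3 most like each other member, and of a marker list some of its most abundant and called genes. Some genes of these lists are not reported here. Other genes were named after their values were seen. The members and lists were chosen with earlier results of these data known. Alternatives were 1 batch, batch as a term, a mean of at least 1, quantile normalization, an intensity trend, treat against a fold change of 1.2, FDR alone, a pseudocount of 0.1, the replicate number as a block, all groups in 1 fit, and each mouse left out.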

Additional observations from a re-analysis of the deposited data

Results flagged for a closer look

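*Klk6* in MO1 was at 6.69, far from the other 4 MO mice at 7.74 to 8.01. The same distance test set apart MO4 for *Procr* (1.07, against 1.46 to 1.62) and for *Hgf* (0.77, against 1.22 to 1.35). In all 3 of 56 groups of 5 mice were set apart, where chance gives about 1 in 20, or 2.8.

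The age effect in mutant mice minus that in wild-type mice was singled out by the fit of that difference for *Klk8* (1.203), *Plau* (2.09), *Plaur* (1.48), *Serpine2* (0.51) and *Serpini1* (-0.30). These values are a description, and the FDR cut is not counted as a test, since the contrasts behind them were in view when the genes were chosen. For *Plat* (1.23) every WO mouse was lower than the WY mice and every MO mouse higher than the MY mice, and its place in the same fit is likewise a description, with the difference not counted as tested because its direction chose the gene.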

How the results depend on the processing

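With a pseudocount of 0.1, 1483 genes were called in MY vs. MO and 1529 in WO vs. MO, and with the FDR alone 4646, 5075 and, in WY vs. WO, 204. With FDR alone, 5 members passed in MY vs. MO. In WY vs. WO the count was 73 in batch 1, 80 with batch as a term and 3 with treat, and from 7 (without WY3) to 64 (without WO4). In WY vs. MY it was 2 with a mean of at least 1, 2 with an intensity trend, 4 with all groups in 1 fit, and from 1 to 5 with a mouse left out. Of the members, 3 met the thresholds in WO vs. MO in batch 1, beside 873 of all genes, and 3 with treat, beside 698. In WY vs. WO none (0) did with treat, 1 with all groups in 1 fit, beside 35 of all genes, and 0 to 2 with a mouse left out. *Plau* in WY vs. MY changed sign without MY3 (0.0132) and without WY3 (0.0131), with a range of -0.114 to 0.0132 and no call. The cause was not tested. Of the values for single genes with a limma FDR, 1018 kept their direction and their side of the threshold, 37 were no longer past it and 21 newly were. Of those without one 5 moved by more than 1 SD, and 11 of the other 335 changed sign, for *F2r* in WO vs. MO and for *Klk8* and *Plaur* in WY vs. WO.

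The deviations of same-numbered mice had correlations of -0.23 to 0.41. In MY vs. MO these were 0.20, 0.09 and 0.17, against -0.17 to 0.08 for mice of different numbers. In WY vs. MY they were -0.11, -0.22 and -0.02. The sign thus differed between comparisons, and the numbers were not taken to pair the mice. With the replicate block, 1 member met the thresholds in WY vs. WO in place of 2, and 1108 genes were called in MY vs. MO, 840 in WO vs. MO, 63 in WY vs. WO and 1 in WY vs. MY. In MY vs. MO the block called *Plat* in place of *Klk8*.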
